A study of Rattus norvegicus with 28 samples.

Results

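Transcripts of 10 genes that make, dismutate or remove superoxide and peroxide were followed in the rat spinal cord before contusion, over 8 weeks after it, and after transplantation of neural progenitor cells (NPCs). The genes were Cybb, Sod1, Sod2, Sod3, Cat, Gpx1, Gpx3, Prdx1, Nqo1 and Gclc. They were chosen by name, because each has a textbook role in this chemistry, and with earlier results of these data known. They were taken from the array as the features that carry the same gene name. All 10 were present, as 12 probes (Sod1 and Gpx1 had 2 each), among 35469 features by gene name and 41012 probes in all. The question was which of these transcripts changed with the injury, and which changed again when NPCs were given. The study lists the removal of superoxide radicals among the functions modulated by NPCs, and proposes a scavenger function for these cells. That result came from a score of pathway activity computed from expression. Single transcripts were tested here, which is a different measure. In the array's annotation (rn4) the Cybb probe lies at chrX:25518505-25518564, the Sod3 probe at chr14:63381466-63381525, the Nqo1 probe at chr19:37256979-37257038 and the Sod2 probe at chr1:41862972-41863005, and whether a probe lies in an exon or UTR was not looked up, since no annotation of that build was used.

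Superoxide is made in phagocytes by an NADPH oxidase, a complex whose catalytic subunit is encoded by Cybb, and in all respiring cells as a leak from mitochondria. Superoxide dismutases convert it to hydrogen peroxide, and catalase, glutathione peroxidases and peroxiredoxins then break the peroxide down. A separate layer of control comes from the transcription factor NRF2 (encoded by Nfe2l2), which drives genes such as Nqo1 and Gclc when cells meet oxidants. In the contused spinal cord, resident microglia and incoming macrophages are a known source of superoxide.

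The animals were adult female Sprague Dawley rats, with 4 arrays in each of 7 groups, each array from a different animal. T0 animals had no contusion (the labels call them sham, the study calls them uninjured). T1, T2, T4 and T8 animals had a severe contusion of 250 kdyn at the thoracic level and were sacrificed 1, 2, 4 and 8 weeks later. T1_NPC animals received NPCs directly after contusion and T2_NPC animals 1 week after it, and both were sacrificed 1 week after transplantation, so that T1 and T2 are their time-matched injured groups. The NPCs were grown from injured spinal cords of adult rats and were injected on both sides of the epicentre. All tissue was a 1.5 cm piece of thoracic cord, which in injured animals held the epicentre, and for T2_NPC the labels name a slightly different extent of segments and do not mention removal of the dura. The study's methods list antibiotic, buprenorphine and the immunosuppressant FK-506 (1 mg/kg, from the day before transplantation) in the care of all animals, and say that injured controls were injected with medium without cells. The sample records give an FK-506 dose for T1_NPC and T2_NPC animals alone. Neither source says when FK-506 began in animals that were never transplanted. If those animals had none, FK-506 and transplantation cannot be told apart. The cells left in the cord after transplantation are part of the tissue, and their RNA cannot be told apart from that of the host.

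The deposited values hold a conflict that bears on every result. The scanner outputs and the table of normalized values disagree on the sample of 16 of 28 arrays: 2 each in T0, T2 and T8, 3 each in T1 and T4, all 4 in T1_NPC and none in T2_NPC. Values here follow the normalized table, and slide and scan session follow the scanner output with the same rank order. Time-course arrays lay in sessions 1 and 2, with both sessions in every group, whereas the 4 T1_NPC arrays shared 1 slide and the 4 T2_NPC arrays another, both in session 3, so that slide or session and transplantation cannot be told apart. In the T0, T1, T2, T4 and T8 groups, the undisputed arrays were those of session 1 and the disputed arrays those of session 2. Session 1 held 1 array each of T1 and T4 and 2 each of T0, T2 and T8. Time-course results within session 1 and with undisputed arrays alone therefore rest on the same arrays and are not separate checks. Between 74.5% and 82.7% of spots were well above background on an array. The second T1_NPC array stood apart from its group, with a mean correlation of 0.971 with the other 3, against 0.979 to 0.988 for the other 27 arrays, and the differences of the 10 genes between T1_NPC and T1 are given with and without it.

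After injury, the oxidase gene Cybb and the peroxidase genes Gpx1 and Gpx3 were higher than in T0 at all 4 time points, the extracellular dismutase gene Sod3 was higher, and the cytosolic dismutase gene Sod1 was lower. At T1, 4 of 10 genes were called higher (Cybb, Gpx1, Gpx3, Sod3), where 19.1% of all features were, and 1 was called lower (Sod1), where 25.1% of all features were. At T2, 5 were called higher, with Nqo1 added, against 17.7% of all features, and 2 lower, with Sod2 added, against 22.2%. The same 7 genes were called in the same directions at T4 (17.5% of all features higher and 21% lower) and at T8 (18.2% and 21.5%). Cat, Prdx1 and Gclc were not called at any time point. In the order of the time points, the median log2 fold change of the 10 genes was 0.14, 0.48, 0.45 and 0.49, and the median over all features was -0.0988, -0.055, -0.0605 and -0.0447. All comparisons with T0 share its 4 arrays, and p-values measure the spread between arrays within groups. The fit had no term for scan session, so that spread holds differences between sessions as well as between animals. Under the scanner outputs with the samples they were deposited with, none of the 10 genes was called at any time point, and of all features 0, 1, 0 and 0 were. With the undisputed arrays alone, which are fewer, the calls of Sod1 and Sod3 at T1, of Sod2 at T2, of Sod1, Sod2 and Nqo1 at T4 and of Sod2 at T8 were lost.

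**Figure D1:**
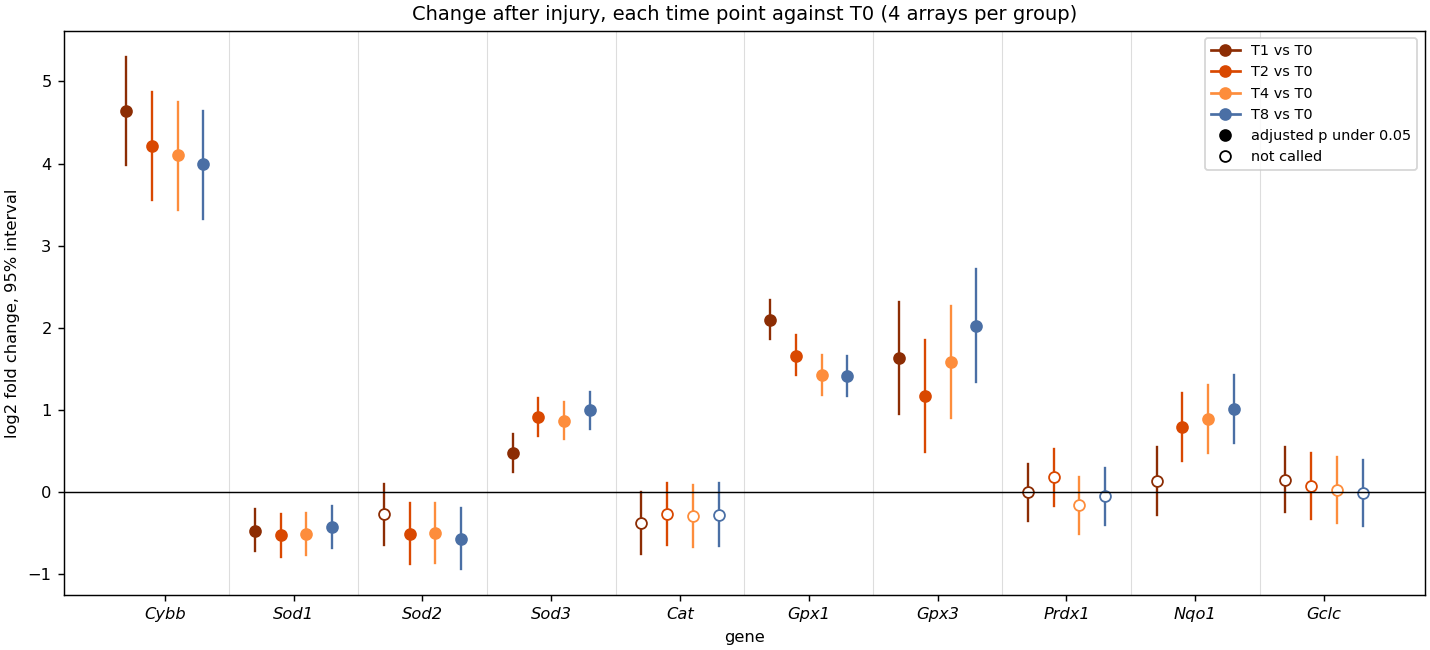
Log2 fold change of each gene at T1, T2, T4 and T8 against T0, with its 95% interval from the limma fit (4 arrays per group). Filled points passed an adjusted p under 0.05. Cybb stands at 3.99 to 4.64, Gpx1 at 1.41 to 2.10, and Sod1 at -0.53 to -0.43.

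The stretches of DNA before the starts of 4 of these genes are shown because the genes were called in different ways against T0. Cybb and Gpx1 were called higher from T1 on, Nqo1 was called higher from T2 on, and Sod1 was called lower. The step of Nqo1 from T1 to T2 was itself not called, so a later start of its rise was not shown. Each is the 250 bases before the RefSeq start (GRCr8), printed 5′ to 3′ on the gene's strand, namely chrX:16065066-16065315 (minus strand) for Cybb, chr8:117905212-117905461 (plus) for Gpx1, chr11:42942573-42942822 (plus) for Sod1 and chr19:52220268-52220517 (minus) for Nqo1. Capitals mark the PU.1 core (GAGGAA) and the CCAAT box (CCAAT) in Cybb, the GC box (GGGCGG) in the other three, and the TATA box (TATAAA) in Sod1 and Nqo1. Motifs were searched on both strands, so that the PU.1 core of Cybb and the GC boxes of Sod1 and Nqo1 appear as their reverse complements, and none of the capital stretches overlap.
Cybb: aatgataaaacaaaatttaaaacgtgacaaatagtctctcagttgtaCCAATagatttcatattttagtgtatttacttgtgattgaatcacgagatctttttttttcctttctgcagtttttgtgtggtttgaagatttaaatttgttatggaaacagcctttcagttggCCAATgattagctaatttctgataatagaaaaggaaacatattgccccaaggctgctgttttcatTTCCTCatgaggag
Gpx1: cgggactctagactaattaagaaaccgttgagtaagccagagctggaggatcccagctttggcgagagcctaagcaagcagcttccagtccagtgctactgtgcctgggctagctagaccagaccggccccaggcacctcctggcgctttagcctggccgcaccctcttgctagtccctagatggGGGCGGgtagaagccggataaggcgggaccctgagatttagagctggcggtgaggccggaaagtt
Sod1: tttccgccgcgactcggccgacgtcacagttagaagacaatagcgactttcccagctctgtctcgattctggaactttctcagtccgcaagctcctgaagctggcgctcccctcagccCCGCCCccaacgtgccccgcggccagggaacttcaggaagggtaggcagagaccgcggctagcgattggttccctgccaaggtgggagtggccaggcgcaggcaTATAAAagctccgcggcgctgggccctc
Nqo1: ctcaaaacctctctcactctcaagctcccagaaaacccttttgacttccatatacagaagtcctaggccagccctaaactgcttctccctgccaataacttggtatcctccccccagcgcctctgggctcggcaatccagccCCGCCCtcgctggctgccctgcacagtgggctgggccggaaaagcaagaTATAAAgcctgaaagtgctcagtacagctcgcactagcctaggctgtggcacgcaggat
The Cybb stretch held 1 PU.1 core and 2 CCAAT boxes and no GC box, and the Gpx1, Sod1 and Nqo1 stretches each held 1 GC box. Sod1 and Nqo1 also held 1 CCAAT box each, which is left in lower case. Of 33469 rat promoters of the same length, 23.3% held the PU.1 core, 34% the CCAAT box, 30.5% the GC box and 12.9% the TATA box. A GC box was found in 7 of the 9 genes with an entry (all but Sod3). The PU.1 core was in 4 of the 9 (Cat, Gpx3, Gclc and Cybb), so it was not particular to Cybb. The CCAAT box was in 4 (Sod1, Cat, Nqo1 and Cybb) and the TATA box in 4 (Sod1, Prdx1, Nqo1 and Gclc). The core of the antioxidant response element (TGACNNNGC), which NRF2 binds, was in 10.1% of all promoters and in 2 of the 9 genes, Sod2 and Prdx1. These matches describe letters in a window and no binding was measured.

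Cybb, which encodes the catalytic subunit gp91phox of the phagocyte oxidase, changed the most of the 10 genes. Its log2 values on the 4 T0 arrays were 4.65, 4.85, 4.28 and 4.43, and its probe was well above background on 2 of those 4 arrays and on all 24 others. At T1 they were 8.88, 9.32, 9.01 and 9.57. At T8 they were 8.38, 8.77, 9.01 and 7.99. All injured arrays lay far above the T0 arrays. T2 arrays ran from 8.23 to 9.29 and T4 arrays from 8.29 to 8.93. The difference was 4.64 (SE 0.32, adjusted p = 3.99e-11 by limma), or 24.9-fold, at T1, and 4.21, 4.10 and 3.99 at T2, T4 and T8, or 15.8-fold at the last. With so low a level in T0, the size of this fold rests on values near background there.

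The partners of Cybb moved with it. Of 14 genes of NADPH oxidases, 7 were higher in each of T1, T2 and T8 and 6 in T4, and none was lower (at T1, 19.1% of all features were higher and 25.1% lower). Cyba, the membrane partner of Cybb, was higher by 3.66 at T1 (12.7-fold, adjusted p = 7.75e-15) and by 3.12 at T8. Ncf1 and Ncf4, which encode cytosolic subunits, were higher at T1 by 4.23 and 3.48. Rac2, the small GTPase that switches the complex on in blood cells, was higher by 3.76 at T1 and by 2.30 at T8, and it was lower at T2 than at T1 by 0.92 (adjusted p = 0.00337). Of the oxidases of other cells, Nox1 differed by -0.47 at T1 and was not called, and Nox3 and Nox4 were not well above background on any array.

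Markers of microglia and macrophages moved with Cybb and Gpx1. All 12 markers of that list were higher at each of the 4 time points, with median log2 fold changes of 2.51, 2.29, 2.33 and 1.88, and all 12 were well above background on all 28 arrays. Their summed linear level lay between 134000 and 147000 in T0, 654000 and 796000 in T1, 641000 and 673000 in T2, 538000 and 603000 in T4, and 495000 and 574000 in T8. Of the 4 time points, the summed level was at its highest in T1 and lower in T4 and T8, as were the means of Cybb and Gpx1. T4 and T8 were not tested against T1, and the Cybb arrays of T1 (8.88 to 9.57) and T8 (7.99 to 9.01) overlapped. Fibroblast and meningeal markers were higher as well (8 of 8 at T1, summed level 147000 to 259000 against 7240 to 9980 in T0), and 10 of 11 neuronal markers were lower at T1 (120000 to 218000 against 407000 to 539000). Of 10 oligodendrocyte markers 6 were lower at T1, and of 9 neutrophil markers 4 were higher and 1 lower. Of 8 astrocyte markers 1 was higher and 3 were lower, of 8 endothelial markers 4 were higher and 1 lower, and of 3 red blood cell markers none was called. Over all features at T1, 19.1% were higher and 25.1% lower. In tissue extracts, fewer cells of a type and less RNA per cell cannot be told apart, and the part of cell makeup in these results was not tested.

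**Figure D2:**
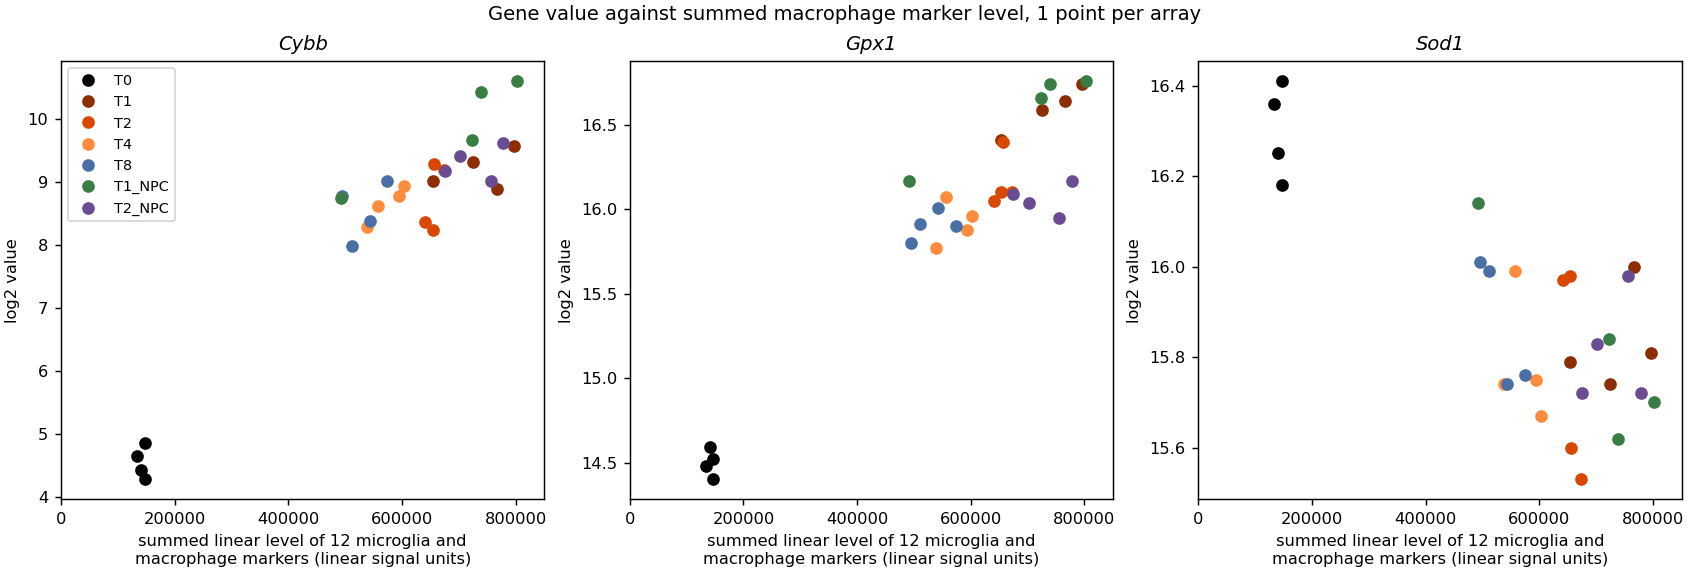
Log2 value of Cybb, Gpx1 and Sod1 (y axes) against the summed linear level of 12 microglia and macrophage markers (x axis, linear signal units), 1 point per array, coloured by group. The 4 T0 arrays lie apart at the left, between 134000 and 147000, where Cybb is at 4.28 to 4.85 and Sod1 at 16.18 to 16.41.

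The 3 dismutase genes moved in different directions. Sod1, which encodes the copper and zinc enzyme of the cytosol, had log2 values of 16.36, 16.18, 16.41 and 16.25 in T0. In T1 its values were 16.00, 15.74, 15.79 and 15.81, and in T8 they were 15.74, 16.01, 15.76 and 15.99. Every T1, T2, T4 and T8 array was below every T0 array. The log2 fold change was -0.47 at T1 (SE 0.12, adjusted p = 0.00352), or 1.38-fold lower, and -0.53, -0.51 and -0.43 at T2, T4 and T8. Both Sod1 probes fell at T1, by 0.47 and 0.46 on the log2 scale. Within each of the 5 time-course groups, arrays of session 1 were above those of session 2, and the differences from T0 within a session were -0.41 to -0.38 in session 1 and -0.65 to -0.44 in session 2. Of the 5 genes of superoxide dismutation and catalase (the 3 dismutases, Cat and Ccs), 2 were higher and 1 lower at T1. Of all features, 19.1% were higher and 25.1% lower there. From T2 on, 2 of the 5 were higher and 2 lower, where 17.5% to 18.2% of all features were higher and 21% to 22.2% lower. Ccs, whose product loads copper into SOD1, was higher by 0.32 at T1 (adjusted p = 0.0472) and by 0.49 at T8.

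Sod2 encodes the manganese enzyme of mitochondria. Its T0 values were 10.93, 10.83, 10.84 and 10.96, and its T2 values were 10.34, 10.43, 10.40 and 10.35, with no overlap and little spread. The T1 values of 10.73, 10.67, 10.69 and 10.36 were also all below T0, but the difference of -0.27 (95% interval -0.65 to 0.10) was not called. At T2, T4 and T8 Sod2 fell by 0.51, 0.50 and 0.57 on the log2 scale (adjusted p = 0.0269, 0.0311 and 0.0143), or up to 1.48-fold. Each of these calls turned on single arrays. The T2 and T4 calls were lost without the first or the fourth T0 array, the T2 call also without the first or the fourth T2 array, the T4 call without the first or second T4 array, and the T8 call without the first T8 array, with log2 fold changes of -0.68 to -0.47 over all such omissions.

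Sod3 encodes the secreted dismutase that sits in the extracellular matrix. It had values of 13.40, 13.52, 13.57 and 13.41 in T0, of 13.92, 13.85, 14.04 and 13.95 in T1, and of 14.68, 14.13, 14.36 and 14.36 in T2. These 3 groups did not overlap and rose in that order. Sod3 was higher than in T0 by 0.47 (adjusted p = 0.00123), 0.91, 0.87 and 1.00 at T1, T2, T4 and T8, reaching 1.99-fold at T8, and T4 arrays lay between 14.32 and 14.38. The step from T1 to T2 was 0.44 (SE 0.11, adjusted p = 0.0444), and this call was lost without any 1 of 17 arrays.

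**Figure D3:**
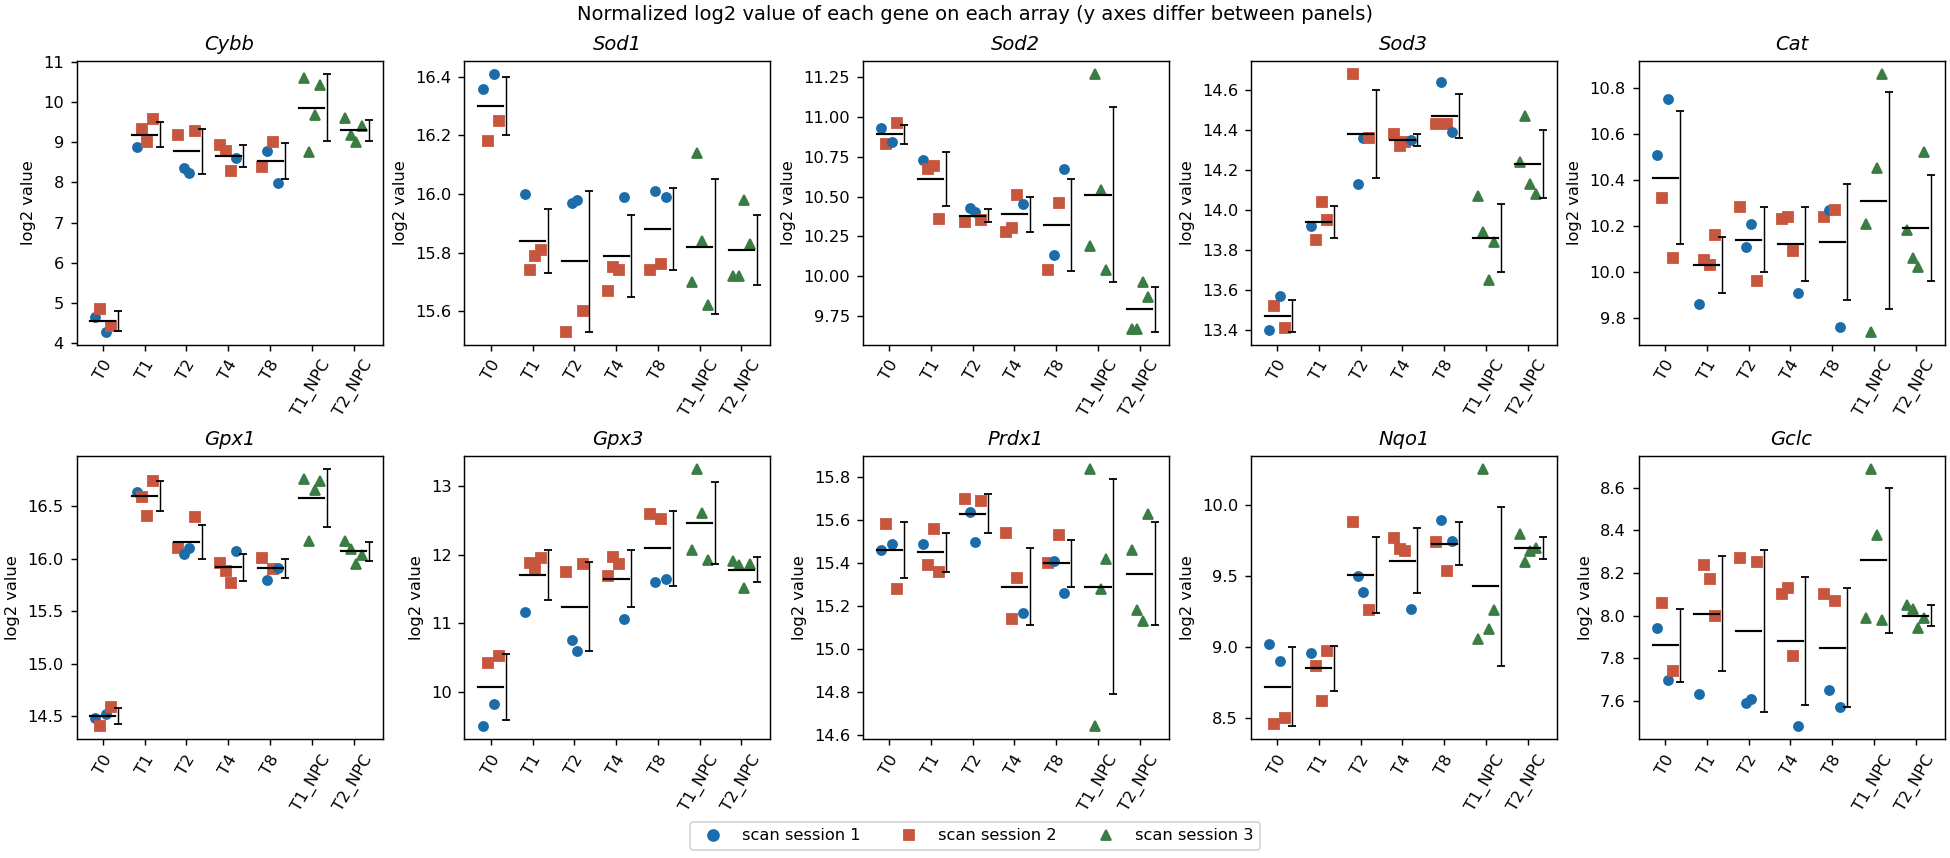
Log2 value of the 10 genes on each of the 28 arrays by group, with the group mean (line) and SD (bar), and with the scan session as colour and shape. Sod1 arrays of T0 lie at 16.18 to 16.41 above all T1, T2, T4 and T8 arrays, and the second T1_NPC array has the highest Nqo1 value (10.26).

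Genes that remove peroxide fell into a group that rose and a group that was not called. Gpx1, which encodes the main cytosolic glutathione peroxidase, had T0 values of 14.48, 14.40, 14.52 and 14.59, and T1 values of 16.64, 16.59, 16.41 and 16.74. T2 arrays lay between 16.05 and 16.40, T4 arrays between 15.77 and 16.07 and T8 arrays between 15.80 and 16.01. Every injured array was thus more than 1 log2 unit above T0. It was higher by 2.10 at T1 (SE 0.12, adjusted p = 1.06e-12), or 4.29-fold, and by 1.66, 1.42 and 1.41 at T2, T4 and T8. Its 2 probes gave 1.98 and 2.22 at T1. Gpx1 was lower at T2 than at T1 by 0.43 with no overlap between the groups, but its adjusted p of 0.0611 missed the threshold (it ran from 0.0327 to 1 over 14 other settings, 6 of which called the gene).

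Gpx3 encodes the plasma glutathione peroxidase, a secreted selenoenzyme. Its values were 9.50, 10.42, 9.83 and 10.52 in T0, 11.17, 11.88, 11.79 and 11.95 in T1, and 12.59, 11.60, 12.52 and 11.65 in T8. Every injured array was above every T0 array, with a wide spread inside groups. Arrays of session 1 were below those of session 2 in all 5 time-course groups, by 0.70 to 1.12 on the log2 scale, which is most of that spread. The log2 fold change was 1.63 at T1 (SE 0.33, adjusted p = 0.000277), 1.17 at T2, 1.58 at T4 and 2.02 at T8, or 4.06-fold at the last, and it lay between 1.01 and 1.96 within session 1 and between 1.33 and 2.09 within session 2.

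Cat, Prdx1 and Gclc were not called against T0. Cat encodes catalase, and its values of 10.51, 10.32, 10.75 and 10.06 in T0 overlapped those of 9.86, 10.05, 10.03 and 10.16 in T1. The difference at T1 was -0.38 (95% interval -0.76 to -0.00, adjusted p = 0.0978), and -0.27 to -0.29 at the other time points. It differed by session, at -0.77 to -0.47 within session 1 and -0.11 to 0.06 within session 2. Prdx1, an abundant cytosolic peroxiredoxin, had group means between 15.29 ± 0.18 (SD, n = 4) in T4 and 15.63 ± 0.09 in T2, against 15.46 ± 0.13 in T0, and its 95% intervals against T0 stayed between -0.51 and 0.52. Gclc, the catalytic subunit of the enzyme that limits glutathione synthesis, had a mean of 7.86 ± 0.17 in T0 and 8.01 ± 0.27 in T1, and its intervals against T0 stayed between -0.42 and 0.55. Within session 1 Gclc was lower than T0 by log2 differences of -0.34 to -0.19, and within session 2 it was higher by 0.11 to 0.36.

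Nqo1, which encodes a quinone reductase and is a standard NRF2 target, was called from T2 on. Its values were 9.02, 8.46, 8.90 and 8.50 in T0 and 8.96, 8.87, 8.62 and 8.97 in T1, which overlapped. In T2 they were 9.88, 9.50, 9.39 and 9.26, and in T8 9.74, 9.90, 9.54 and 9.75, all above both earlier groups. Nqo1 differed from T0 by a log2 fold change of 0.13 in T1 (95% interval -0.28 to 0.55), of 0.79 in T2 (adjusted p = 0.00261), of 0.89 in T4 and of 1.01 in T8, the last being 2.02-fold. The T4 difference was 0.31 with the undisputed arrays alone, which are those of session 1 and include 1 T4 array. Within session 1 the difference lay between -0.00 and 0.86, and within session 2 between 0.34 and 1.24. The step from T1 to T2 of 0.66 was not called (adjusted p = 0.105), although the groups did not overlap.

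Among the other genes of peroxide and glutathione chemistry, the largest rises were in the glutathione system. Of 17 glutathione genes, 9 were higher and 3 lower at T1, where 19.1% and 25.1% of all features were, and 7 were higher and 3 lower at T8 (18.2% and 21.5%). The largest changes at T1 besides Gpx1 and Gpx3 were in Gpx2 (1.72), Gpx7 (1.56, a peroxidase of the endoplasmic reticulum) and Mgst1 (1.01, a microsomal glutathione transferase). Gpx4, the peroxidase that protects membrane lipids, was lower at T1 with a log2 fold change of -0.76 (adjusted p = 0.000182). Of 14 peroxiredoxin and thioredoxin genes on the array, 3 were higher and 2 lower at T1 and at T8, which is near or below those shares. Prdx4, the peroxiredoxin of the endoplasmic reticulum, was higher by 0.80 at T1, and Txnip, which binds thioredoxin, by 0.67 at T1 and 1.50 at T8, whereas Prdx6 was lower at T1 with -0.50. The counts are a description, and no test compared the lists.

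Of 16 NRF2 regulators and targets, 8 were higher and 3 lower at T1 (19.1% and 25.1% of all features), and 9 were higher and 1 lower at T8 (18.2% and 21.5%). Hmox1, the heme oxygenase gene, was higher by 4.43 at T1 (21.5-fold, adjusted p = 4.79e-12) and by 2.40 at T8, and it was lower at T2 than at T1 with a log2 fold change of -1.46. Ftl, a ferritin subunit, was higher by 1.63 at T1. Maff, which was not well above background on any T0 array, was at least 2.34-fold higher at T1. Of the 4 time points, Hmox1 was highest at T1, where Nqo1 was not called. Nfe2l2 itself was higher by 0.76 and Bach1, a repressor of the same targets, by 1.36 at T1, and Keap1, which holds NRF2 in the cytosol, differed by 0.31 and was not called.

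**Figure D4:**
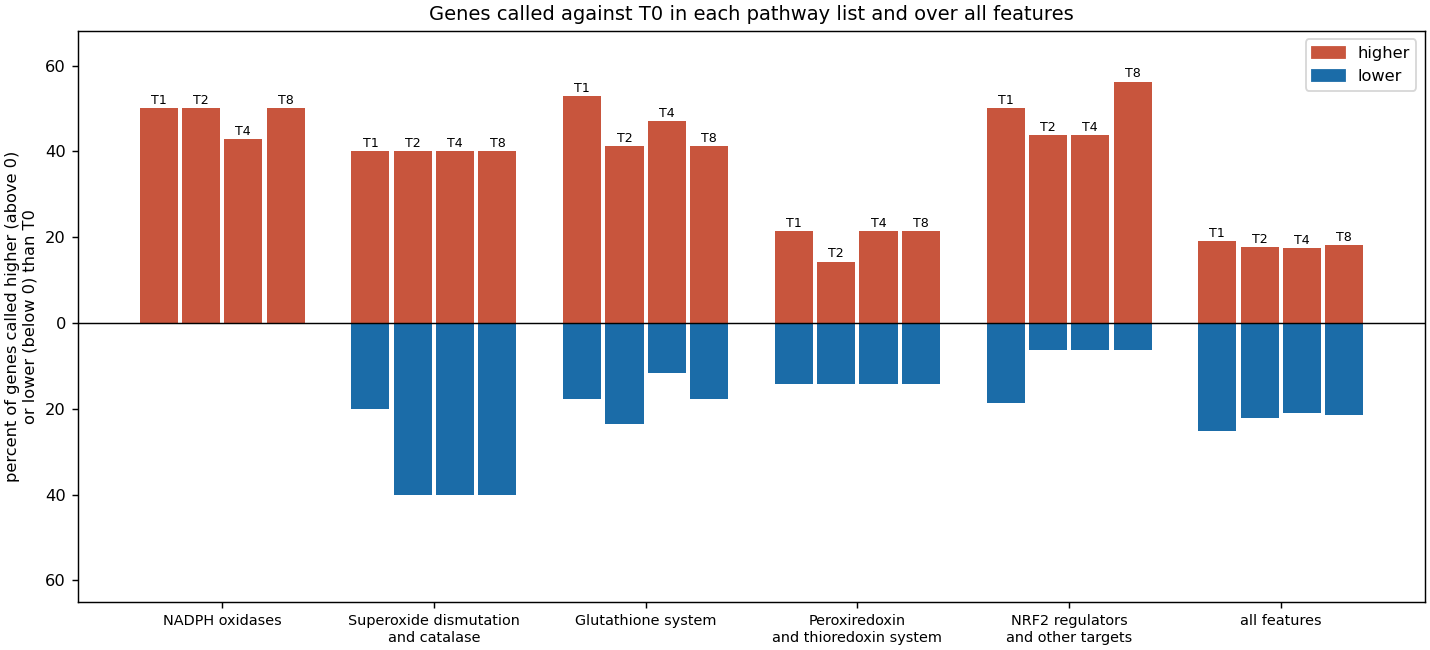
Percent of genes called higher (above 0) or lower (below 0) than T0 at T1, T2, T4 and T8 in 5 pathway lists and over all features. The lists hold 14, 5, 17, 14 and 16 genes on the array and include the 10 genes described here. No NADPH oxidase gene was called lower, while 25.1% of all features were at T1.

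Few of these genes changed between successive time points. From T1 to T2, Sod3 was the single gene of the 10 called, where 1.48% of all features were. From T2 to T4 none was called (0.0761% of all features), and from T4 to T8 none (0.0902%). By the same limma fit, 3198 and 1716 features had an unadjusted p under 0.05 in these last 2 steps, and of the 10 genes none did from T4 to T8, where the intervals of all 10 included 0.

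After NPC transplantation, calls among the 10 genes were about as rare as over all features (11.9% called in T1_NPC against T1 and 9.47% in T2_NPC against T2). With cells given directly after contusion, none of the 10 genes was called against T1, where 5.45% of all features were higher and 6.46% lower (9518 features had an unadjusted p under 0.05). With cells given 1 week after contusion, 1 gene was called against T2, namely Sod2, which was lower, where 4.62% of all features were higher and 4.85% lower. The median log2 fold change of the 10 genes was 0.12 for T1_NPC against T1 and 0.05 for T2_NPC against T2. None of the 10 was called for the difference between both transplantation effects (0.299% of all features, 3969 with an unadjusted p under 0.05).

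Sod2 values in T2_NPC were 9.67, 9.67, 9.96 and 9.87, all below the T2 values of 10.34 to 10.43. The log2 fold change was -0.59 (SE 0.18, 95% interval -0.96 to -0.21, adjusted p = 0.0421), or 1.50-fold lower, and against T0 it was -1.10 (adjusted p = 2.32e-05), or 2.14-fold lower. The call against T2 was lost without any 1 of the 8 arrays (log2 fold change -0.64 to -0.54), with the scanner outputs as deposited (-0.81, adjusted p = 0.104), with the slide as a random block (-0.58, adjusted p = 0.134) and with the replicate number as a block (-0.59, adjusted p = 0.0543). In T1_NPC the Sod2 values were 10.19, 11.27, 10.54 and 10.04, the second array being far above the other 3, and the difference from T1 was -0.11 with all 4 arrays and -0.36 (adjusted p = 0.11) without the second. The effects on Sod2 at the 2 times differed by 0.48 (95% interval -0.05 to 1.01, adjusted p = 0.506), and by 0.23 (adjusted p = 0.721) without the second T1_NPC array.

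For the other dismutases and Gpx1, the intervals included 0 in both transplanted groups. For Sod1 the difference was -0.01 (95% interval -0.27 to 0.24) in T1_NPC and 0.04 (-0.21 to 0.30) in T2_NPC. For Sod3 it was -0.08 (-0.31 to 0.15) and -0.15 (-0.38 to 0.07). For Gpx1 it was -0.01 (-0.26 to 0.23) and -0.10 (-0.34 to 0.15). None of the 3 pairs of intervals reached the size of the change that the same gene showed at T1 against T0. Without the second T1_NPC array, the differences from T1 were -0.12 for Sod1, -0.09 for Sod3 and 0.12 for Gpx1.

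Cybb, Gpx3 and Nqo1 had higher means in both transplanted groups than in their time-matched groups, with wide spreads in T1_NPC. Cybb was at 10.60, 8.75, 9.67 and 10.42 in T1_NPC, and its difference from T1 was 0.67 (95% interval 0.01 to 1.33, adjusted p = 0.178). Without the second array the difference was 1.04 and was called (adjusted p = 0.0243). That array also had the lowest summed level of macrophage markers of its group, 492000 against 723000 to 802000, and the highest of neuronal markers, 281000 against 141000 to 197000. In T2_NPC Cybb was at 9.61, 9.17, 9.01 and 9.41, with a difference from T2 of 0.53 (-0.12 to 1.19). Of its subunit partners, Cyba differed from T1 by 0.02, Ncf1 by -0.11 and Ncf4 by -0.17, none of them called, and none of the 12 macrophage markers was called in T1_NPC (median -0.23). Without the second array these differences were 0.14 for Cyba, 0.20 for Ncf1 and -0.02 for Ncf4, none of them called, and again none of the 12 markers was called (median -0.01). In T2_NPC 1 of the 12 was called higher (C1qa, by 0.61), and the median over the 12 was 0.05. The 12 went in both directions, from -0.38 for Aif1 to 1.01 for Itgam, neither of them called. Their summed level was 675000 to 778000 in T2_NPC against 641000 to 673000 in T2, and in this linear sum bright markers weigh most. In T2_NPC, 1 of 3 red blood cell markers was higher, with a summed level of 5320 to 23100 against 1850 to 4100 in T2. Of 10 oligodendrocyte markers 2 were higher, with a summed level of 393000 to 438000 against 291000 to 351000. Of 9 neutrophil markers 1 was lower (Np4, by a log2 fold change of -0.40). The endothelial marker Cldn5 was higher in T1_NPC (0.51) and in T2_NPC (0.52), as the single one of 8. Over all features, 5.45% were higher and 6.46% lower in T1_NPC against T1, and 4.62% higher and 4.85% lower in T2_NPC against T2. The part of these cell types in the differences was not tested.

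Nqo1 was at 9.06, 10.26, 9.13 and 9.26 in T1_NPC, all above the T1 values, which ended at 8.97. The difference was 0.58 (95% interval 0.16 to 0.99, adjusted p = 0.0627), and it was 0.30 (adjusted p = 0.258) without the second array. Nqo1 was called with 75th percentile scaling (0.63, adjusted p = 0.0268) and with normexp background correction (0.57, adjusted p = 0.0269), and over the 11 settings with a value, these included, its adjusted p ran up to 1. Gpx3 was at 12.07, 13.25, 12.61 and 11.92 in T1_NPC, a difference from T1 of 0.77 (0.08 to 1.45, adjusted p = 0.134), and of 0.50 without the second array. In T2_NPC the differences from T2 were 0.19 (-0.23 to 0.60) for Nqo1 and 0.54 (-0.14 to 1.23) for Gpx3. With the 12 undisputed arrays alone, Cybb, Gpx3 and Gclc were called higher in T2_NPC (Cybb by 1.00 and Gclc by 0.40 on the log2 scale). The 2 T2 arrays left there both came from session 1. Of the 5 time-course groups, session 1 lay below session 2 without overlap in 5 for Gpx3, 4 for Gclc and 2 for Cybb. The part of session in these calls was not tested.

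**Figure D5:**
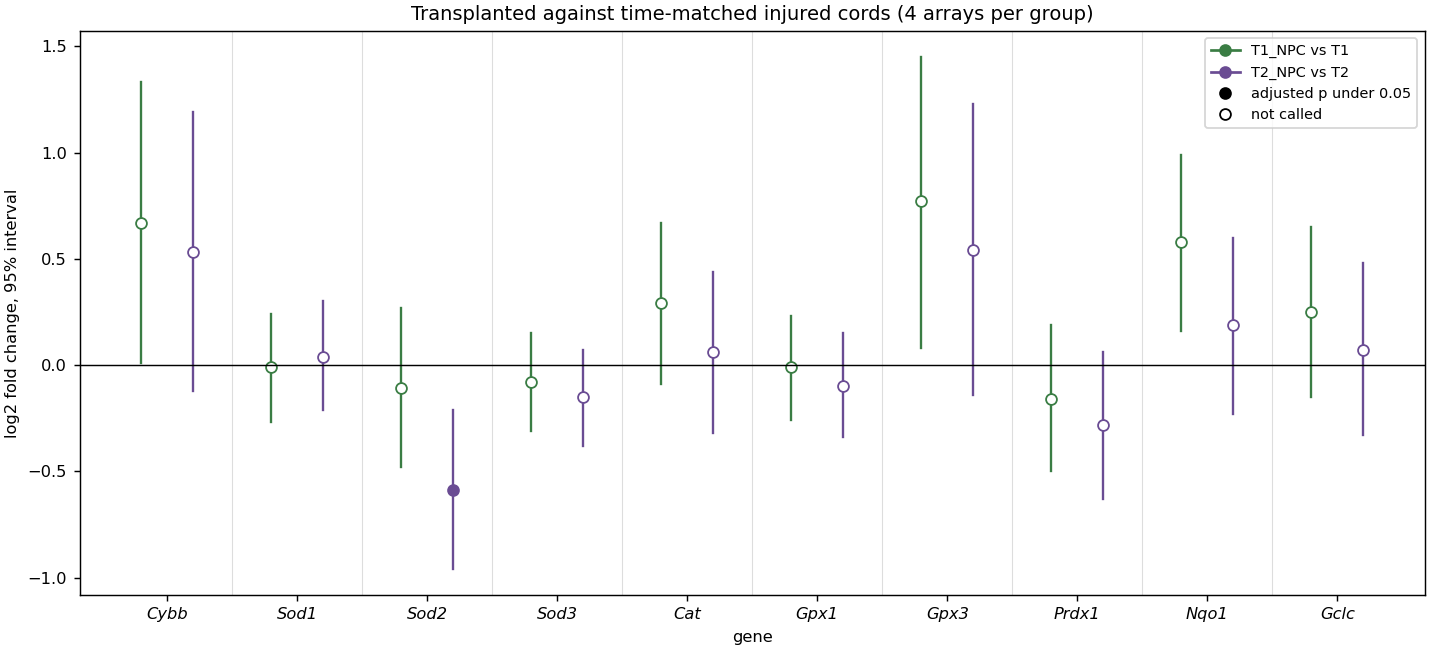
Log2 fold change of each gene in T1_NPC against T1 and in T2_NPC against T2, with its 95% interval (4 arrays per group). The filled point is Sod2 in T2_NPC at -0.59, the single gene called.

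Cat, Prdx1 and Gclc stayed uncalled after transplantation as well. Cat differed by 0.29 (95% interval -0.09 to 0.67) in T1_NPC and 0.06 in T2_NPC, Prdx1 by -0.16 and -0.28, and Gclc by 0.25 and 0.07. Without the second T1_NPC array these differences from T1 were 0.48 for Cat (adjusted p = 0.0866), 0.06 for Prdx1 and 0.11 for Gclc. Gclm, the regulatory partner of Gclc, was lower in T1_NPC than in T1 with a log2 fold change of -1.15 (adjusted p = 0.000923), from 5.65 ± 0.24 to 4.51 ± 0.39 (SD, n = 4), and it was well above background on 3 of 4 T1_NPC arrays. Gpx8, a peroxidase of the endoplasmic reticulum, was lower there with -0.61 (adjusted p = 0.0145). Both were still called without the second array (-1.21 and -0.57). In T2_NPC, Gpx7 was lower than in T2 with -0.78 (adjusted p = 0.0187), and Keap1 was higher by 0.80 (adjusted p = 0.0205), with values of 11.95 to 12.06 against 10.94 to 11.67. Of all features, 5.45% were higher and 6.46% lower in T1_NPC against T1, and 4.62% higher and 4.85% lower in T2_NPC against T2. Of the 17 genes of the glutathione list, 1 was higher and 2 were lower in T1_NPC, and 1 was higher and 1 lower in T2_NPC. Of the peroxiredoxin and thioredoxin list 2 were higher in T1_NPC (Prdx5 and Txn2, named after their values were seen, neither of which was called without the second array), and of the oxidase list none was called in either group.

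Against T0, the same genes that rose or fell at T2 made up the calls, except that Sod2 in T1_NPC was not called with all 4 arrays (-0.38) and was called without the second (-0.64, adjusted p = 0.000474). In T1_NPC 5 of the 10 genes were called higher and 1 lower (52.7% of all features called in either direction), and in T2_NPC 5 were higher and 2 lower (47.7%). Cybb was 39.6-fold and 26.8-fold higher, Gpx1 4.24-fold and 2.97-fold, and Gpx3 5.26-fold and 3.28-fold higher than in T0. Without the second T1_NPC array the folds in T1_NPC were 51.2 for Cybb, 4.67 for Gpx1 and 4.38 for Gpx3, and all 6 genes were still called. The T1_NPC call of Sod3 (0.39) was lost with 75th percentile scaling (0.15, adjusted p = 0.363) and with normexp (0.19, adjusted p = 0.167), and that of Nqo1 (0.71) in a fit of the compared groups alone (adjusted p = 0.0808). With the scanner outputs as deposited, the calls of all 6 genes in T1_NPC, and in T2_NPC all but that of Sod2, were lost. These comparisons share the T0 arrays with those of T1 to T8.

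The features whose values followed each gene most closely over the 28 arrays (highest Pearson correlation among 10125 or 10126 features with a symbol and well above background on all arrays) differed between the genes. For Cybb they were Smpdl3a (0.982), Scamp2 (0.981) and Lyz2 (0.98), the last a lysozyme gene of macrophages. For Gpx1 they were Amdhd2 (0.991), Gmfg (0.988) and Folr2 (0.986). For Sod1 they were Wdr54 (0.964), Ndufs3 (0.949, a subunit of mitochondrial complex I) and Begain (0.941). For Sod3 they were Igfbp2 (0.922), Scn7a and Plekha4, for Sod2 Rnf113a1 (0.913), Psmd1 and Sclt1, for Gpx3 Mbd2 (0.941), Ell and Sh3bp5, and for Nqo1 Crip2 (0.868), Carhsp1 and Nrtn. Cat (Hdac2, 0.72), Prdx1 (Rkhd2, 0.816) and Gclc (Sestd1, 0.853) had no feature above 0.86. The T0 arrays lie apart from the rest for most of these genes, so that the values mainly describe the step from T0 to injury, and they are given without a test.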

How the data were processed

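RNA from 28 spinal cords was measured on single-dye rat arrays, 4 in each of 7 groups taken from the sample labels. The authors deposited scanner outputs, which hold background-corrected intensity values per spot (Agilent Feature Extraction 10.7.1.1), and a value table of log2 values after quantile normalization between arrays, which was the main source. Control spots (1639) were left out, 43379 spots were averaged to 41012 probes and these to 35469 features by gene name, with no filter on dim probes. Group means were fitted to all 28 arrays in R 4.3.3 by limma (version 3.58.1), with empirical Bayes moderation (2.26 prior degrees of freedom) and Benjamini-Hochberg adjustment over all features at 0.05; the fit was checked on simulated data. Values are relative, so levels of different genes were not compared.

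Each scanner output was given the column with the same rank order (Spearman correlation 1, against 0.948 to 0.992 for the deposited pairing of the 16 disputed arrays). Alternatives were the scanner values under either pairing, undisputed arrays, 75th percentile scaling, normexp (offset 50, on the median in place of the planned mean signal, which some outputs lack), dim probes left out, single or brightest probes, trended robust moderation, slide, session or replicate blocks, compared groups alone and each array left out. With 4 arrays a group, their number limits the precision.

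The members and gene lists were chosen with earlier results of these data known. Named from each pathway list were the 3 other genes with the largest called change at T1, the 2 with the largest called change per transplantation contrast over all lists, oxidase subunits and NRF2 regulators by role, and the 3 features most like each member; others were named after their values were seen. One gene that this rule names is not reported here. Marker lists covered microglia and macrophages, neutrophils, neurons, oligodendrocytes, astrocytes, endothelial cells, fibroblasts and red blood cells. Promoter sequences came from RefSeq (GRCr8), with 1 entry for 9 of 10 genes.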

Additional observations from a re-analysis of the deposited data

Results flagged for a closer look

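In 7 of 70 tests of a gene within a group of 4 arrays, 1 array lay far from the other 3 by Dixon's criterion, where chance gives such a gap in about 1 in 20 groups. Sod2 was low in T1 replicate 4 (10.36), Sod3 was high in T8 replicate 2 (14.64), Cat was low in T8 replicate 4 (9.76) and Gpx1 was high in T2 replicate 4 (16.40). Gpx3 was low in T2_NPC replicate 3 (11.52). T1_NPC replicate 2 had the remaining cases, a low Gpx1 (16.17) and a high Nqo1 (10.26), and it is also the array with the lowest mean correlation with its group (0.971). No explanation was tested.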

How the results depend on the processing

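The number of the 10 genes called stayed within 1.5 times of the main count in most of 14 alternatives besides single arrays, and the pairing of arrays with samples mattered most. Under the scanner outputs as deposited, 0 genes were called at T1, T2, T4 and T8 against T0, 0 in T2_NPC against T2, 0 between successive time points and 1 for transplanted against T0 (13 as reported), and reversed values were Gpx3 -0.17 and Nqo1 -0.45 at T2, Nqo1 -0.30 at T4, Sod3 -0.00 for T2 against T1 and Nqo1 -0.01 for T1_NPC against T0; the cause was not tested. With undisputed arrays alone (fewer samples), 3 genes were called at T1, 4 at T4, 4 in T2_NPC against T2 and 0 between successive time points. For T1_NPC against T1, 1 gene (Nqo1) was called with 75th percentile scaling and 1 with normexp. Between successive time points 2 were called with normexp, with dim probes left out, with trended robust moderation, with the slide as a random block and with a session block, and 0 with only the compared groups. For T2_NPC against T2, 0 were called with the slide as a random block and 0 with the replicate block. Replicate numbers did not pair the samples (correlations of same-numbered deviations from -0.339 to 0.274). The replicate block left 7 genes called at T2 and moved Sod3 from T1 to T2 to an adjusted p of 0.0628. Leaving out 1 array gave 5 to 6 genes at T1, 6 to 7 at T2, T4 and T8, 0 to 1 for either transplantation, 0 to 3 between successive time points and 13 to 14 against T0. Fixed slide or session blocks could not give the transplantation contrasts. The 75th percentile scaling moved the median of all features to -0.27 at T1, -0.16 at T4, 0.12 for T2 against T1, 0.11 for T1_NPC against T1 and -0.11 for T2_NPC against T0.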
